A study of Mus musculus with 12 samples.

Results

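The chaperones of the endoplasmic reticulum were followed in liver RNA of 12 mice through 10 genes: Hspa5, Hyou1, Hsp90b1, Dnajb9, Dnajb11, Dnajc3, Sdf2l1, Creld2, Manf and Calr. They were taken by symbol from a table of 57010 genes, where each symbol stood once, and all 10 were among the 9980 genes that reached 1 TPM in at least 6 libraries. Levels are in TPM, a unit that corrects for transcript length and gives each library an equal sum. Levels of different genes can therefore be compared, but the sequencing depth is unknown. All mice were male wild-type C57BL/6J on a normal diet, 6 weeks old when they were assigned after 7 days of acclimatization. The 6 selenium mice received Aspergillus oryzae A02, a food fungus grown with selenium, by gavage in saline at 0.5 mg selenium per kg each day, and the 6 controls are labelled as untreated. Fungus, selenium and gavage with saline cannot be told apart in this design, since the labels mention none of them for the controls. The feeding time is 8 weeks in the design text, whereas the sample descriptions speak of 14 weeks. The protocol assigned 10 mice to each group, of which 6 have a library here, 1 per mouse, so p-values measure the spread between these mice. The tissue is labelled liver and the cell type hepatocyte. Below, selenium names the treated group.

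The endoplasmic reticulum is where secreted and membrane proteins enter the secretory pathway, are glycosylated and fold. Hepatocytes, which make most plasma proteins, hold a large amount of it. Hspa5, the HSP70 of this compartment (also called BiP or GRP78), binds unfolded chains in cycles of ATP hydrolysis that J-domain co-chaperones start and nucleotide exchange factors end. When unfolded proteins accumulate, the sensors Atf6, Ern1 and Eif2ak3 are activated, and the transcription factors ATF6 and XBP1 raise chaperone transcription through stress elements in promoters.

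The promoter sequences that follow show which members carry such an element. The members were taken by symbol and not by sequence. As chaperone genes they are nonetheless the kind of gene that such elements are known to serve, so the share of carriers is a description only. RefSeq promoter windows (build GRCm38.p6, from 250 bases before to 50 bases after each gene's start) matched 8 of the 10 members, all but Hyou1 and Manf. The element searched was CCAAT, then any 9 bases, then CCACG, on both strands. It stood in the windows of 5 of the 8 members, Hspa5, Hsp90b1, Dnajc3, Creld2 and Calr. In the whole table it stood in 39 of 32851 windows, or 0.119%, and in 37 of 27025 genes, or 0.137%. Its second form, ATTGG, then any 1 base, then CCACG, stood in Dnajb11 and in 0.0365% of all windows. Capitals mark the paired blocks, and CGTGG before ATTGG is the element read on the opposite strand.
Hspa5, chr2:34772004-34772064, plus strand: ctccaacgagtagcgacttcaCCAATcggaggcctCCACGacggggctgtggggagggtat
Hsp90b1, chr10:86705617-86705677, minus strand: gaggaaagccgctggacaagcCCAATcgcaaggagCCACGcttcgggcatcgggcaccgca
Hsp90b1, chr10:86705512-86705572, minus strand: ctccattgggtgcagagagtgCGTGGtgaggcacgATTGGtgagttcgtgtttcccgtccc
Dnajc3, chr14:118937806-118937866, plus strand: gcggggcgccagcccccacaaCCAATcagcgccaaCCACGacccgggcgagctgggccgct
Creld2, chr15:88819499-88819559, plus strand: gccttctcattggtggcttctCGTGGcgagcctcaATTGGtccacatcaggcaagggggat
Calr, chr8:84847054-84847114, minus strand: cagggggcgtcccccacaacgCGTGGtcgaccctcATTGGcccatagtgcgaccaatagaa
Dnajb11, chr16:22857843-22857871, plus strand: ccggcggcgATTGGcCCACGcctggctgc

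Counted from the gene's start, the element lay at -65 to -47 in Hspa5 and, in 2 copies, at -212 to -194 and -107 to -89 in Hsp90b1. In Dnajb11 the second form lay at 8 to 18, after the start. For Dnajc3, unlike the other members searched, the last 20 bases of the window were in no GENCODE M21 transcript of the gene. Its start is therefore less sure. Dnajb9 and Sdf2l1 held neither form, although CCACG alone, which is also a part of both forms, occurred in all 8 windows and in 32.8% of windows of the table. The unfolded protein response element, TGACGTGG, was found in 0 of the 8 windows and in 0.676% of all windows. A match describes letters in this window and says nothing about binding.

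The members spanned a wide range of levels. Calr, the lectin chaperone calreticulin, was the most abundant at 461 ± 124 TPM (mean ± SD, all 12 libraries), followed by Hspa5 at 263 ± 85.4 TPM, Hsp90b1 at 207 ± 51.8 TPM and Manf at 187 ± 82.6 TPM. Calr exceeded Hspa5 in 11 of 12 libraries and Hspa5 exceeded Hsp90b1 in 10, while Hsp90b1 and Manf were not separated, with Hsp90b1 higher in 8. All 12 libraries had more Manf than Creld2. The remaining 6 members averaged from 20.4 TPM (Dnajc3) to 41.2 TPM (Creld2), and neighbours among them mostly overlapped. Creld2 exceeded Dnajb11 in 5 of 12 libraries, Dnajb9 exceeded Sdf2l1 in 6 and Hyou1 exceeded Dnajc3 in 7. Hspa5 stood above the exchange factor Hyou1 and the J-domain proteins Dnajb9, Dnajb11 and Dnajc3 in every library.

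The design's question for these genes is whether their transcripts differ in livers of mice given the selenium-grown fungus. All 10 members had a higher mean with selenium, where 45.4% of all tested genes did. The ratio of group means was 2.35 for Hyou1, 2.18 for Creld2, 1.87 for Dnajb9, 1.77 for Sdf2l1, 1.57 for Hspa5 and for Manf and 1.43 for Dnajb11, but 1.27 for Dnajc3, 1.17 for Hsp90b1 and 1.09 for Calr. In limma's linear model on log2(TPM + 1), adjusted over all 9980 genes by Benjamini-Hochberg, 0 of the 10 passed 0.05, against 0.331% of all genes in either direction and 0.02% in the higher direction. At an unadjusted p under 0.05, 7 of the 10 were higher in limma, where 7.01% of all tested genes were, and 6 in an exact permutation test, where 6.44% were, and in which 0 passed after adjustment. In the authors' deposited table, a separate test of the same libraries, 6 of the 10 had an adjusted p under 0.05 with a higher level in selenium, where 6.97% of the tested genes did. The median log2 change of the members was 0.73 and that of all tested genes -0.03. The members were proposed with results of these data known, so these counts are descriptions. In bulk tissue, fewer cells of a type and less RNA per cell cannot be told apart.

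**Figure D1:**
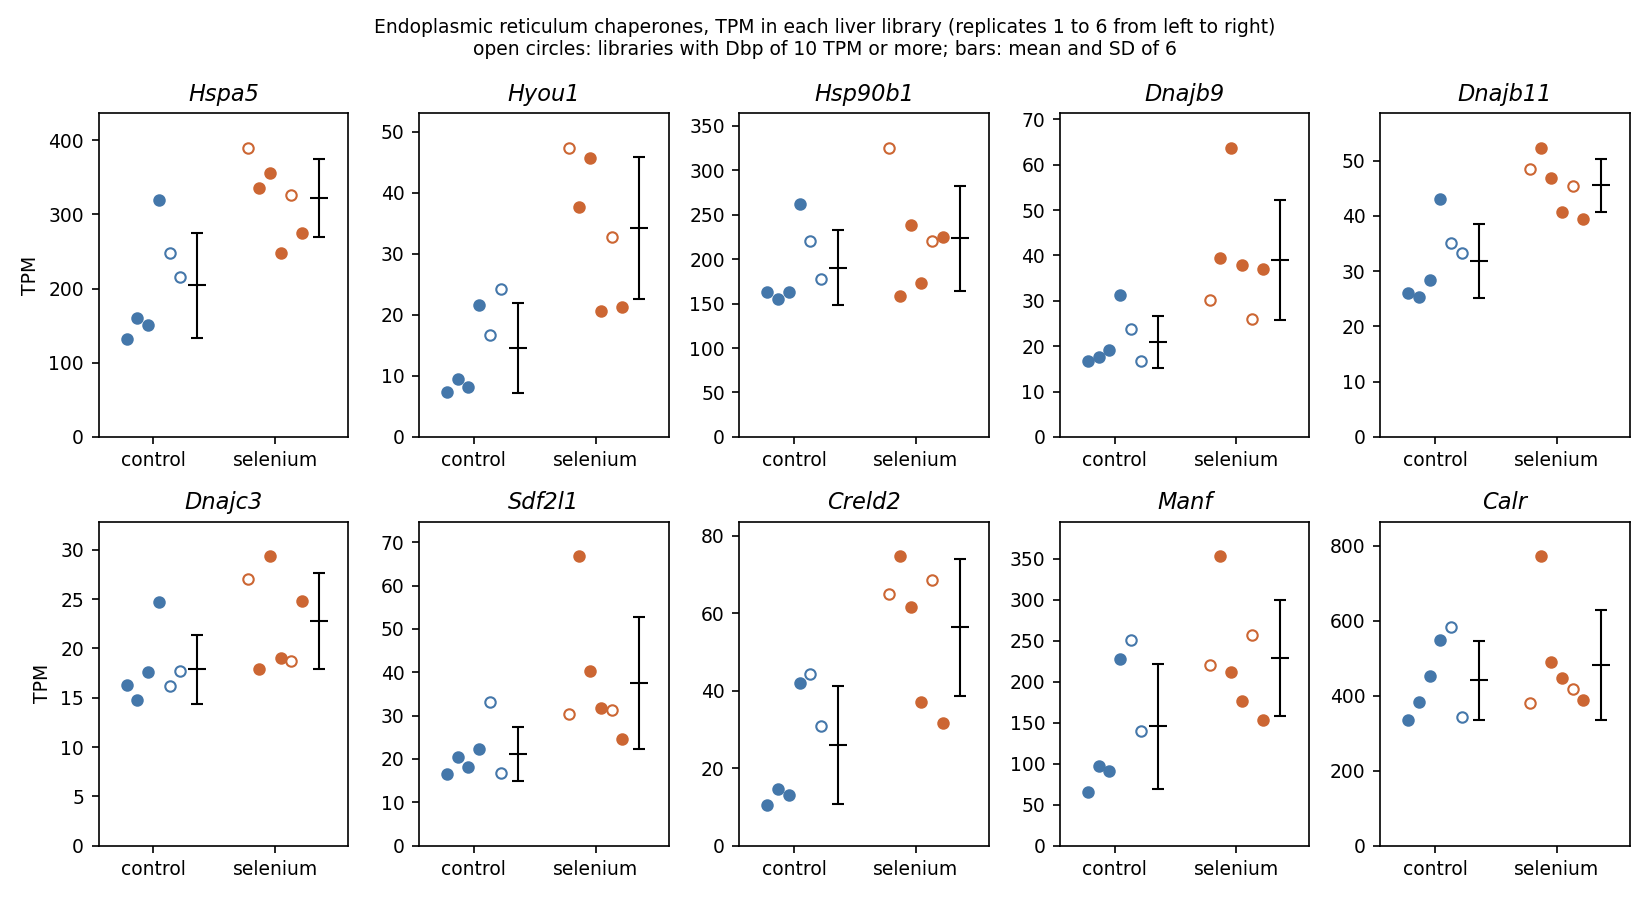
TPM of each chaperone gene (vertical axes from 0) in the 6 control and 6 selenium libraries, with replicates 1 to 6 from left to right in each group, open circles for libraries with 10 TPM or more of the clock gene Dbp, and bars for the mean and SD. Controls 1, 2 and 3 are the 3 lowest libraries in 5 of the 10 panels (Hspa5, Hyou1, Dnajb11, Creld2 and Manf), and in every panel the groups overlap.

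Hspa5 ran from 132 to 319 TPM in controls with a median of 188 TPM, and from 248 to 390 TPM with selenium with a median of 331 TPM. Of the controls, 5 lay below every selenium library, and control 4, at 319 TPM, lay above selenium 4 and 6. The means were 204 ± 71.1 and 322 ± 52.4 TPM (SD, n = 6 per group), and limma put the log2 change at 0.70 (95% interval 0.27 to 1.14) with an adjusted p of 0.115. In an exact permutation test over all ways to label the libraries, two-sided, p was 0.0108 and the adjusted p 0.186. In the authors' deposited table the log2 ratio of control over selenium was -0.82 with an adjusted p of 0.0101.

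Hyou1 encodes a large HSP70-like protein (also called GRP170) that serves Hspa5 as a nucleotide exchange factor. It ran from 7.34 to 24.2 TPM in controls, median 13.1 TPM, and from 20.7 to 47.4 TPM with selenium, median 35.2 TPM. Controls 1, 2, 3 and 5 lay below every selenium library, and 4 selenium libraries lay above every control. The log2 change of 1.24 had an SE of 0.31, an interval of 0.59 to 1.90 and a limma adjusted p of 0.0762. In the authors' deposited table the log2 ratio of control over selenium was -1.32 with an adjusted p of 0.00253. Sil1, the other exchange factor of Hspa5, named here for its role, averaged 22.7 ± 3.65 and 26.4 ± 5.19 TPM, a log2 change of 0.21 with a limma adjusted p of 0.462.

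Dnajb9 (ERdj4) is a J-domain protein that binds misfolded chains and represses the sensor Ern1. Its levels ran from 16.7 to 31.3 TPM in controls, median 18.3 TPM, and from 26.0 to 63.8 TPM with selenium, median 37.5 TPM. Control 4 alone overlapped the selenium group, and selenium 3 stood far above the others at 63.8 TPM. Its log2 change was 0.85, with an interval of 0.42 to 1.29 and a limma adjusted p of 0.0721, which was the smallest of the 10. Without selenium 3 the change was 0.70 and the adjusted p 0.102. The authors' deposited table gave a log2 ratio of control over selenium of -0.93 and an adjusted p of 0.000435.

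Dnajb11 (ERdj3) is a J-domain protein that delivers nascent chains to Hspa5. It had the least relative spread of the members with selenium, and ran from 25.3 to 43.2 TPM in controls, median 30.9 TPM, and from 39.4 to 52.4 TPM with selenium, median 46.1 TPM. Of the controls, control 4 alone reached into the selenium range, at 43.2 TPM. The log2 change was 0.52, with an interval of 0.23 to 0.81 and a limma adjusted p of 0.0927. In the authors' deposited table its adjusted p was 0.0104, at a log2 ratio of control over selenium of -0.61.

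Dnajc3 (P58IPK) is a co-chaperone in the lumen, first described as an inhibitor of eIF2-alpha kinases. It ran from 14.8 to 24.7 TPM in controls, median 17.0 TPM, and from 17.9 to 29.3 TPM with selenium, median 21.9 TPM. Of the controls, 5 lay below every selenium library, with control 4 as the exception. Its log2 change of 0.33 had an interval that just included 0 (-0.001 to 0.65) and a limma adjusted p of 0.273. Further J-domain proteins of this compartment are named for their role. Dnajc1 averaged 6.94 ± 1.42 and 6.95 ± 1.51 TPM, Dnajc10 7.72 ± 0.964 and 7.91 ± 1.65 TPM, and Sec63, the J-domain protein at the translocon, 51.2 ± 6.38 and 42.5 ± 4.83 TPM, with limma adjusted p of 0.999, 0.961 and 0.253. The log2 change of Sec63 was -0.26 in limma, opposite in sign to that of the members, with an interval of -0.51 to -0.01. The authors' deposited table did not share this direction. There its log2 ratio of control over selenium was -0.16, higher with selenium, with an adjusted p of 0.457.

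Sdf2l1 is a partner of Dnajb11 in the lumen. It ran from 16.5 to 33.1 TPM in controls, median 19.3 TPM, and from 24.6 to 66.7 TPM with selenium, median 31.5 TPM. Control 5 was the control that overlapped the selenium group, and selenium 2 was highest. The log2 change was 0.76, with an interval of 0.28 to 1.24 and a limma adjusted p of 0.117, while the authors' deposited table gave an adjusted p of 0.0186. Sdf2, its paralog, named for that reason, averaged 22.4 ± 3.08 and 24.2 ± 2.84 TPM, a log2 change of 0.11 with a limma adjusted p of 0.657.

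Hsp90b1 (GRP94), the HSP90 of the endoplasmic reticulum, folds integrins and Toll-like receptors among other clients. It ran from 156 to 262 TPM in controls, median 171 TPM, and from 158 to 325 TPM with selenium, median 223 TPM. The groups overlapped over most of their range, and 1 selenium library, selenium 1, exceeded all controls. The log2 change was 0.22, with an interval of -0.17 to 0.60 and a limma adjusted p of 0.556. Calr, which holds glycoproteins during folding and binds calcium, ran from 334 to 583 TPM in controls, median 418 TPM, and from 379 to 771 TPM with selenium, median 433 TPM. Its groups overlapped almost entirely, and selenium 2 alone stood above the controls. The log2 change was 0.12, with an interval of -0.30 to 0.54 and a limma adjusted p of 0.790, and it was -0.03 without selenium 2. Canx, the membrane-bound counterpart of Calr, named for its role, averaged 47.6 ± 10.9 and 65.0 ± 18.1 TPM (limma adjusted p = 0.267).

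Creld2 is a protein with EGF-like repeats and disulfide isomerase activity. It had a wide range in controls, from 10.5 to 44.4 TPM with a median of 22.7 TPM, against 31.7 to 74.7 TPM and a median of 63.4 TPM with selenium. Controls 1, 2 and 3 held 10.5 to 14.5 TPM and control 6 30.9 TPM, all below the selenium group, whereas controls 4 and 5 held 42.1 and 44.4 TPM. The log2 change was 1.24, with an SE of 0.35, an interval of 0.48 to 2.00 and a limma adjusted p of 0.112. In the authors' deposited table its adjusted p was 0.0179. Its paralog Creld1, named for that reason, averaged 24.7 ± 4.64 and 26.4 ± 5.01 TPM, a log2 change of 0.09 with a limma adjusted p of 0.784.

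Manf is a small protein that binds Hspa5 and can be secreted as a neurotrophic factor. It ran from 65.7 to 251 TPM in controls, median 119 TPM, and from 153 to 353 TPM with selenium, median 216 TPM. Controls 4 and 5 lay within the selenium range, and controls 1, 2, 3 and 6 lay below it. The log2 change was 0.76, with an interval of 0.10 to 1.42, a limma adjusted p of 0.212 and an exact permutation p of 0.0606 before adjustment. Manf was 1 of the 4 members that did not pass in the authors' deposited table, with Hsp90b1, Dnajc3 and Calr, and their adjusted p there ran from 0.0701 to 0.372.

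**Figure D2:**
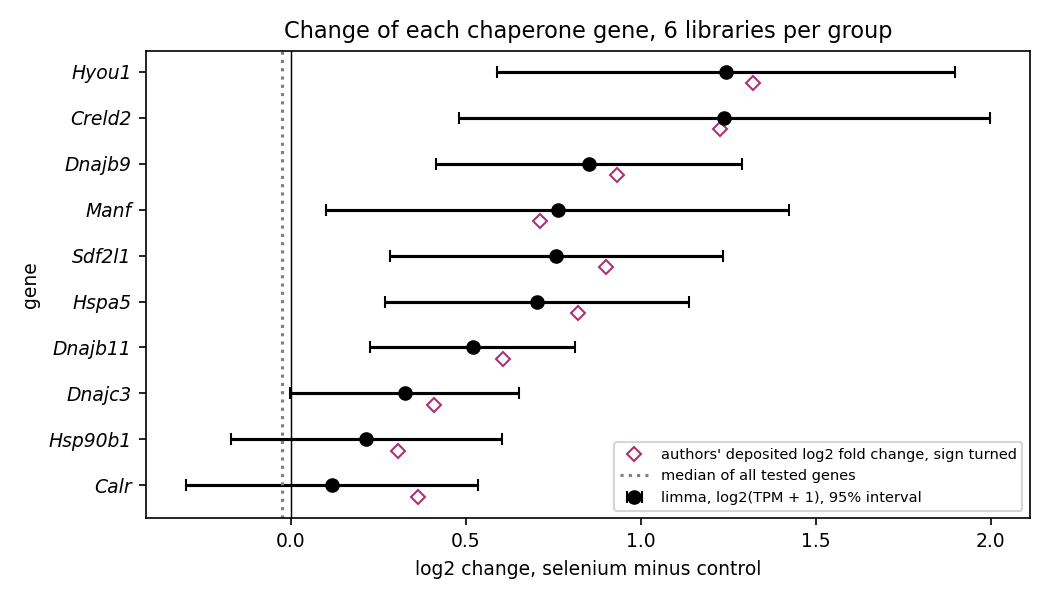
Log2 change of each chaperone gene (horizontal axis, selenium minus control) with its 95% interval from limma, the authors' deposited log2 fold change with its sign turned, and the median of all tested genes as a dotted line. Intervals of 7 members lie above 0, and those of Dnajc3, Hsp90b1 and Calr include it.

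The settings under which a member's call changed were few. With array weights, which weight each library by how well it follows its group, 5 members passed limma's adjusted 0.05 (Hspa5, Hyou1, Dnajb9, Dnajb11 and Creld2), where 1.14% of all genes were called higher. Without control 6, Hyou1 passed with a log2 change of 1.41 and an adjusted p of 0.0429, where 0.561% of all genes were called higher.

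The levels of most members were correlated from mouse to mouse. Over the 12 libraries the median Pearson r of the 45 pairs was 0.71 on log2(TPM + 1), and 0.54 after each group's mean was removed. These values are descriptive, since all pairs share the same livers and libraries. The closest pairs were Hspa5 with Creld2 and Hspa5 with Dnajb11, both at 0.96, and Creld2 with Manf, at 0.96. At the other end, Hsp90b1 with Calr had an r of -0.01 and Dnajc3 with Calr 0.04. For Hsp90b1 and Calr, r was 0.78 among the 6 controls and -0.70 among the 6 selenium libraries, where selenium 2 held the most Calr and the least Hsp90b1 of its group.

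**Figure D3:**
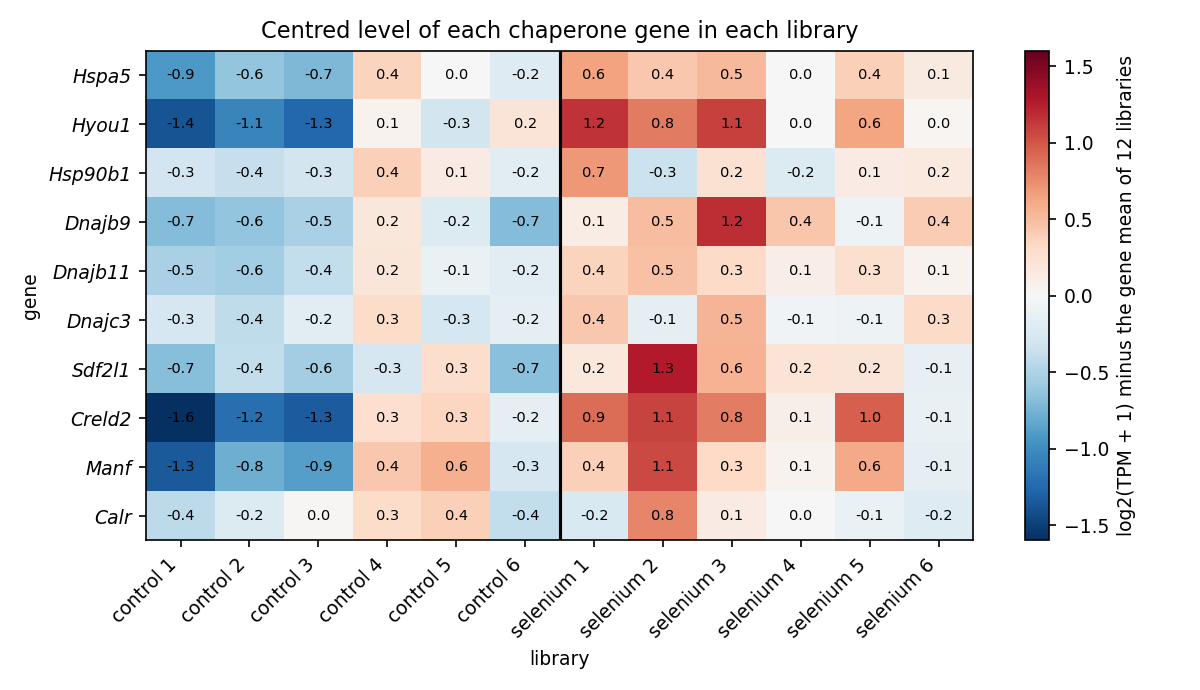
Level of each chaperone gene (rows) in each library (columns), as log2(TPM + 1) minus the gene's mean over the 12 libraries, with controls left of the line. Controls 1, 2 and 3 lie below 0 for every gene except Calr in control 3, control 4 is above 0 for 9 of them, and the highest values sit in selenium 1, 2 and 3.

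Centred on each gene's mean over the 12 libraries, the average of the 10 members was -0.82, -0.62 and -0.61 in controls 1, 2 and 3, 0.22 in control 4, 0.08 in control 5 and -0.27 in control 6. With selenium it ran from 0.05 in selenium 6 to 0.59 in selenium 2. Control 1 was among the 3 lowest of the 12 libraries for all 10 members and control 2 for 8, while control 4 was the highest control for 5 and control 5 for 4. Summed over the 10 genes, the members held 788 to 1542 TPM in controls and 1219 to 1907 TPM with selenium. For 4 members, Hspa5, Dnajb9, Dnajb11 and Dnajc3, control 4 alone kept the groups from separating. Without it, every selenium library exceeded every control for these 4, where the same held for 0.361% of all genes. With all 12 libraries it held for 0 members and 0.16% of all genes. Without control 5 it held for 1 member, Sdf2l1, and 0.2% of all genes. With any other single library left out it held for 0 members and 0.16 to 1.6% of all genes. The median log2 change of the members without control 4 was 0.81, and 0 members passed limma's adjusted threshold, which 0.01% of all genes passed in the higher direction.

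Relative to Hspa5 in the same library, a measure free of the scaling of TPM, the members did not keep 1 proportion. The ratio of Hsp90b1 to Hspa5 ran from 0.820 to 1.24 in controls, median 0.930, and from 0.472 to 0.835 with selenium, median 0.687, with 5 of 6 selenium libraries below every control. The ratio of Calr to Hspa5 had medians of 2.37 and 1.39, and 4 of 6 selenium libraries lay below every control. The ratios of Hyou1 and Creld2 leaned the other way, with medians of 0.0633 and 0.106 for Hyou1 and of 0.111 and 0.170 for Creld2, and in each 2 of 6 selenium libraries exceeded every control. Of the other members, Dnajb9 had 3 selenium libraries above and 1 below every control, Dnajb11 and Dnajc3 each had 2 below, and Sdf2l1 and Manf each had 1 above. Hspa5 itself had a log2 change of 0.70, so the ratio to it of a gene with no change is also lower with selenium. The share of all genes with such ratios was not calculated. No test was made of these ratios, which were chosen after the values were seen.

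**Figure D4:**
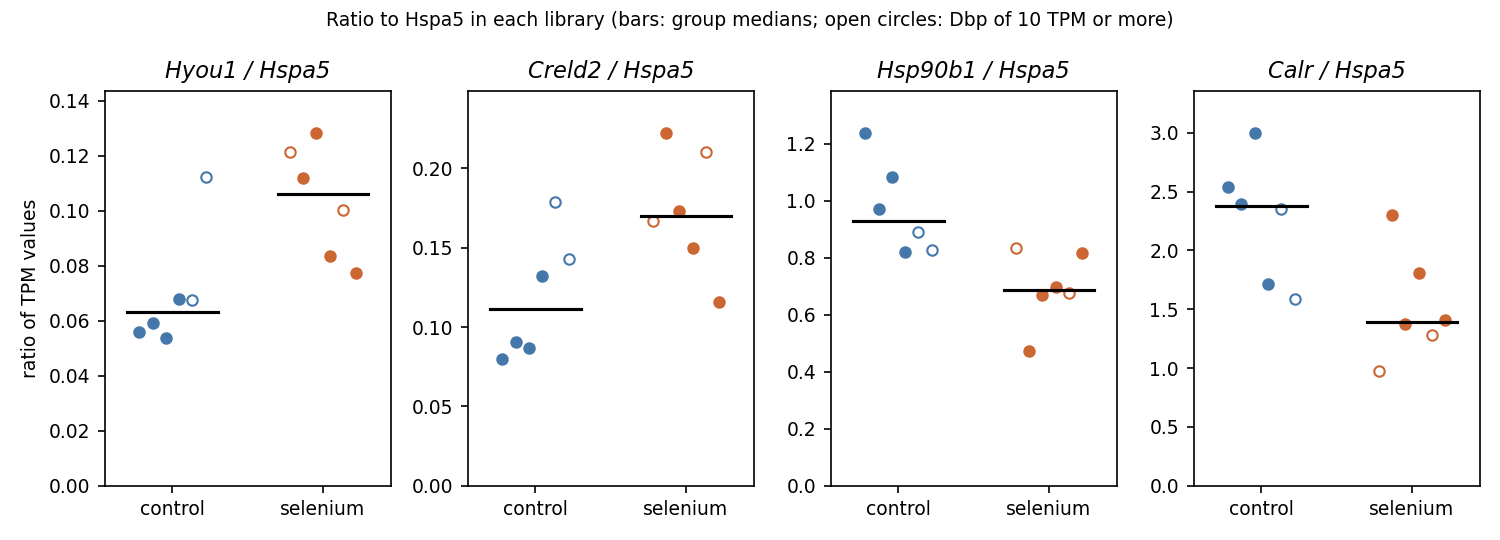
Ratio of the TPM of Hyou1, Creld2, Hsp90b1 and Calr to that of Hspa5 (vertical axes from 0) in each library, with bars at the group medians and open circles for libraries with 10 TPM or more of Dbp. The median for Hsp90b1 is 0.930 in controls and 0.687 with selenium, and that for Hyou1 is 0.0633 and 0.106.

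Some properties of the libraries differed between or within the groups. The clock gene Dbp stood at 15.7 TPM or more in controls 5 and 6 and selenium 1 and 5 and at 1.44 TPM or less in the other 8 libraries, and the clock gene Nr1d1 at 1.04 to 2.92 TPM in controls 1 to 4 and 8.60 to 29.3 TPM in the other 8. The r of Dbp with the members' centred average was 0.21 over the 12 libraries, and high Dbp fell in 2 libraries of each group. No r was calculated for Nr1d1, whose log2 change was 1.57 (limma adjusted p = 0.220). Controls 1, 2 and 3 were the lowest libraries both for Nr1d1 and for the members' centred average. Time of sampling is not given. The 8 libraries with low Dbp, 4 per group, had Nr1d1 at 1.04 to 2.92 TPM in controls and 8.60 to 18.1 TPM with selenium. Treatment and Nr1d1 level therefore cannot be told apart among them. In these 8 libraries 7 of the 10 members were at an unadjusted limma p under 0.05, where 14.1% of all genes were higher at that level. The median log2 change of the members there was 0.85. In the 4 with high Dbp it was 0.44, with Calr at -0.17 and the other 9 above 0. A list of clock genes held 15, of which 11 passed the filter and were tested. With the first 2 principal components of these 11 as covariates, the members' median log2 change was 0.36. In that fit 1 member, Dnajb9, was at an unadjusted limma p under 0.05, where 1.18% of all genes were higher. Manf then had a log2 change of 0.18 and Calr of -0.13.

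Selenium 2 stood apart in base composition. Across 9844 genes its deviations from the mean library correlated with transcript GC content at r = 0.50, against -0.22 to 0.20 in the other 11. It was the highest of all libraries for Dnajb11, Sdf2l1, Creld2, Manf and Calr, whose transcripts have from 50% (Calr) to 56.7% GC (Sdf2l1), and the lowest selenium library for Hsp90b1 and Dnajc3, with 42.1 and 43.2%. The median of all tested genes was 49.2% GC, so Calr, Dnajb11 (50.5%) and Manf (51.0%) were close to it. The other members did not follow GC content in this way. For Hyou1, at 52.3%, selenium 2 (37.6 TPM) lay below selenium 1 and 3, as it did for Hspa5, at 45.6% (336 TPM). For Dnajb9, at 40.6%, selenium 2 was the second highest of its group (39.4 TPM). With each library corrected for GC content the log2 change was 0.75 for Sdf2l1, 0.33 for Hsp90b1 and 0.42 for Dnajc3. Dnajb9 then passed limma with a change of 1.01 (adjusted p = 0.0462), where 0.132% of all genes were called higher.

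The liver label held, with Alb at 10946 to 28130 TPM. The 10 Kupffer cell markers summed to 73.3 to 159 TPM in controls and 65.4 to 295 TPM with selenium, highest in selenium 3, and 10 of 10 had a higher mean log2 level with selenium, 0 of them at an unadjusted p under 0.05 and 0 past limma's adjusted 0.05. Of the 10, 6 were higher at an unadjusted p under 0.05 in the authors' deposited table, where 17.3% of all tested genes were, and 1, Cd5l, passed with an adjusted p of 0.0265. Plasma and B cell markers, from cells rich in endoplasmic reticulum, summed to 53.8 to 98.0 TPM in controls and 45.9 to 82.7 TPM with selenium. Among them Igkc averaged 30.9 and 26.3 TPM, Sdc1 29.1 and 33.9 TPM, Ighm 3.88 and 3.81 TPM and Jchain 2.49 and 2.34 TPM, while Mzb1, Cd79a, Cd79b and Ms4a1 stayed under 1 TPM in all 12 libraries. Hepatic stellate cell markers summed to 90.7 to 140 TPM and 56.0 to 116 TPM, with a lower mean log2 level with selenium for 6 of the 6 that were tested. Endothelial markers summed to 21.6 to 54.2 TPM in controls and 20.8 to 48.3 TPM with selenium. Of the 6 that were tested, 4 had a higher and 2 a lower mean log2 level with selenium. Cholangiocyte markers summed to 51.4 to 303 TPM and 42.1 to 157 TPM, and neutrophil markers to 9.54 to 96.9 TPM and 3.44 to 71.9 TPM, with a lower mean log2 level with selenium for 3 of 3 and 2 of 2 that were tested. In both lists control 5 and selenium 3 were the highest of their groups. Without control 5 the median log2 change of the members was 0.83, and without selenium 3 it was 0.69. Of all 9980 tested genes, 4529 had a higher and 5451 a lower mean log2 level with selenium. These are the counts to set beside the directions of each marker list. Of the pancreatic acinar markers, Cela1 averaged 24.6 and 30.7 TPM, and the other 8 summed to 0 to 0.79 TPM in 11 libraries but to 19.3 TPM in selenium 6, which had the lowest member average of its group. Without selenium 6 the median log2 change of the members was 0.80. No marker was at 0 in all 12 libraries. Mitochondrial-encoded genes took 13.3 to 22.8% of TPM in controls and 8.10 to 13.8% with selenium. With TPM rescaled without them, the median log2 change was 0.64 for the members and -0.11 for all tested genes, and 6 members were higher at an unadjusted limma p under 0.05, where 3.65% of all genes were. The part of the clock genes, the other cell types and the mitochondrial share in the result was not tested.

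The other genes of the pathway were taken from 5 further lists, whose median changes were smaller and in each of which 0 genes passed limma's adjusted 0.05. In the authors' deposited table, 7 of 25 other folding factors, 9 of 18 degradation genes, 8 of 23 entry and glycosylation genes, 5 of 13 chaperones outside the endoplasmic reticulum and 6 of 17 regulators had an adjusted p under 0.05 and were higher with selenium, where 6.97% of all tested genes were. Of 25 other folding factors of the endoplasmic reticulum, 17 had a higher and 8 a lower mean log2 level with selenium (median change 0.11), and 7 were higher and 1 lower at an unadjusted p under 0.05. Of all tested genes 45.4% had a positive change, 7.01% were higher and 11.4% lower at that level, which are the shares to set beside each list that follows. The 3 other folding factors of smallest p with at least 5 TPM were the disulfide isomerases Pdia6, Pdia4 and P4hb. They averaged 97.7 ± 7.11 and 128 ± 14.7 TPM, 55.4 ± 11.98 and 82.6 ± 16.6 TPM, and 239 ± 26.2 and 329 ± 62.3 TPM. Their limma adjusted p were 0.101, 0.112 and 0.126. Pdia3, Erp44 and Txndc5, of the same family and named for that reason, had log2 changes of 0.12, -0.18 and 0.36. Their limma adjusted p were 0.676, 0.547 and 0.184. Of 18 genes of degradation from the endoplasmic reticulum, 17 were positive, with a median of 0.16 and 5 higher at that level. The ubiquitin ligase Syvn1 averaged 14.8 ± 5.39 and 25.6 ± 7.66 TPM, the conjugating enzyme Ube2g2 9.60 ± 2.87 and 14.1 ± 3.48 TPM, and Selenos, a selenoprotein of this machinery, 34.2 ± 4.26 and 41.2 ± 3.56 TPM, with limma adjusted p of 0.138, 0.189 and 0.220.

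Entry and glycosylation genes had 21 of 23 positive changes and a median of 0.23, with 10 higher and 2 lower at an unadjusted p under 0.05. The oligosaccharyltransferase subunits Ostc and Stt3a and the signal recognition particle receptor Srpr differed by 0.44, 0.52 and 0.53 on the log2 scale, with limma adjusted p of 0.0988, 0.116 and 0.116. Chaperones outside the endoplasmic reticulum had 12 of 13 positive changes and a median of 0.33, with 4 higher and 1 lower at that level. Hspa1b, Hsph1 and Dnajb1 averaged 6.67 ± 2.92 and 25.4 ± 25.9 TPM, 13.9 ± 8.07 and 28.4 ± 10.7 TPM, and 5.87 ± 1.57 and 10.5 ± 4.38 TPM, with limma adjusted p of 0.105, 0.107 and 0.129, and reads of Hspa1b can be shared with the near-identical Hspa1a. The 18 secreted liver proteins, clients of this folding machinery, had a median of -0.10 with 8 positive and 10 negative, 2 of them higher and 0 lower at an unadjusted p under 0.05.

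**Figure D5:**
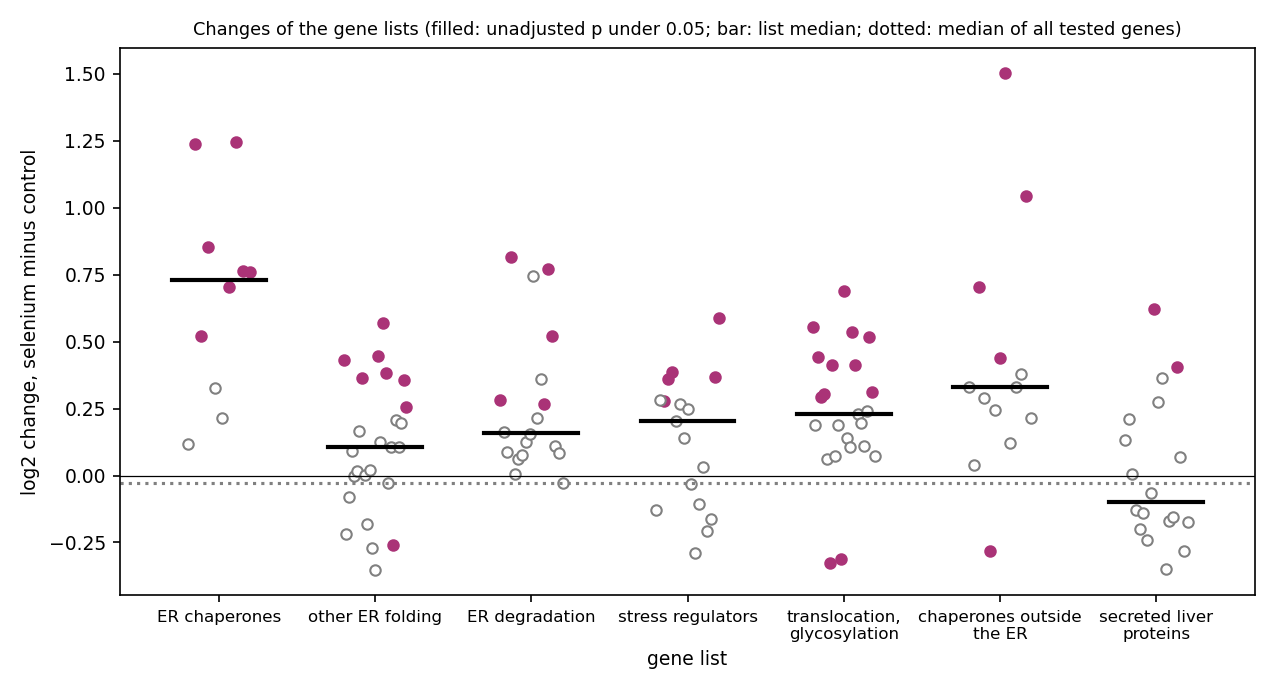
Log2 change (vertical axis, selenium minus control) of each tested gene of 7 lists, with filled points for an unadjusted limma p under 0.05, bars at the list medians and the median of all tested genes dotted. The chaperone list has the highest median, 0.73, followed by chaperones outside the endoplasmic reticulum at 0.33, and secreted liver proteins lie at -0.10.

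Among sensors and regulators, 11 of 17 had a higher mean log2 level with selenium (median change 0.20), and 5 were higher at an unadjusted p under 0.05. Xbp1 averaged 41.1 ± 8.05 and 62.5 ± 14.1 TPM, a log2 change of 0.59 with a limma adjusted p of 0.1001, and the authors' deposited table gave it an adjusted p of 0.0185. Every selenium library exceeded every control for Xbp1, as for Pdia6 and Ostc, which held for 0.16% of all genes. Creb3l3, a liver factor of the same membrane-bound class as Atf6, averaged 74.3 ± 12.2 and 97.6 ± 16.9 TPM, and Mbtps1, the protease that cleaves both, 7.49 ± 0.912 and 9.11 ± 1.42 TPM (limma adjusted p = 0.176 and 0.281). The sensors were low, with Atf6 at 4.12 ± 0.964 and 5.27 ± 1.40 TPM, Ern1 at 3.82 ± 0.757 and 4.32 ± 0.935 TPM and Eif2ak3 at 2.38 ± 0.491 and 3.12 ± 1.02 TPM. Atf4 and Ddit3, effectors of the Eif2ak3 branch, had log2 changes of -0.13 (interval -0.52 to 0.26) and 0.20 (-0.37 to 0.77). Splicing of Xbp1 and cleavage of Atf6, the steps that activate them, are not seen in gene-level TPM.

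The promoter element was also carried by genes outside the members. Of 37 genes with it, 16 were tested, and 11 of these were not members. These 11 had a median log2 change of 0.36, with 8 positive, 5 higher at an unadjusted p under 0.05, where 7.01% of all tested genes were, and 0 past limma's adjusted 0.05. The 5 were Derl3, Syvn1, Pdia6, Ero1b and Canx, with log2 changes of 0.81, 0.77, 0.38, 0.36 and 0.43, named after their values were seen. Derl3 lay near the filter of 1 TPM, and its group means were 1.01 ± 0.490 (control) and 2.52 ± 0.773 TPM (selenium). Among the rest of the 5, the lowest control mean was 9.54 TPM, that of Ero1b. Hsp90b1 and Calr, both with the element, had log2 changes of 0.22 and 0.12, and Dnajb9 and Sdf2l1, which lacked it in this window, of 0.85 and 0.76, a difference that was not tested.

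The genes most like the members in pattern were found by Pearson r with the members' centred average over the 12 libraries, among 5247 other genes of at least 5 TPM. They were Pdia4 (r = 0.94), Syvn1 (0.93), Atp2a2 (0.92), Lrrc59 (0.92), Sel1l (0.91), Tmed3 (0.89), Ostc (0.89) and Copg1 (0.88). After removal of the group means the r of these 8 ran from 0.74 (Ostc) to 0.92 (Sel1l). Atp2a2 is the calcium pump that fills the endoplasmic reticulum, Sel1l the partner of Syvn1, and Tmed3 and Copg1 belong to vesicle traffic between it and the Golgi. Sel1l averaged 22.3 ± 7.43 and 27.9 ± 3.38 TPM and Atp2a2 22.7 ± 6.71 and 33.7 ± 8.36 TPM, with limma adjusted p of 0.305 and 0.159.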

How the data were processed

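Liver RNA of 12 mice was sequenced, 1 library per mouse, after TRIzol and RNeasy extraction, per the labels' protocols. The submitters' processing notes name the tools RSEM 1.2.8, HISAT2 2.1.0 and DESeq2 and the build GRCm39, with no role or order. The authors deposited TPM per gene and library, and per the file headers their series table adds, for control over selenium, log2 fold changes and raw and adjusted p-values. Their test and whether counting used strand are not given in the sources used here. Depth is unknown, so no counting error is given.

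Genes with at least 1 TPM in 6 or more libraries (9980) were tested on log2(TPM + 1) with limma 3.58.1 in R 4.3.3, with an intensity trend, two-sided, with Benjamini-Hochberg adjustment over all 9980 and a threshold of 0.05. This scale understates the change of low genes. The procedure was tested on simulated data, in which genes varied independently of each other, unlike the members here. That run therefore says nothing about calls among correlated genes. The members and the 16 gene lists (213 genes, all matched) were chosen with earlier results of these data known. Named genes are the 10 members, the 3 genes of smallest p with at least 5 TPM in each of 5 lists, the 8 most alike in pattern, and Xbp1, Atf6, Atf4, Ddit3, Ern1, Eif2ak3 and Dbp, with others said to be outside this rule where they appear. Nr1d1, Alb and the cell type markers are also outside it. GC content was that of the longest GENCODE M21 transcript. In that annotation exons of Manf and Hsp90b1 overlap other genes, by at most 166 and 270 bases, and those of Dnajb9 a microRNA. No protein sequences were used here. Whether same-numbered mice share a cage or day is not stated.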

Additional observations from a re-analysis of the deposited data

Results flagged for a closer look

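Of 72 groups of 6 libraries examined for the 36 named genes, 8 had 1 library far from the other 5. The rule used gives about 1 in 20 for independent, normally distributed values. These are TPM of genes that vary together, so the count is not set against that rate. Selenium 3 was highest of its group for Dnajb9 (63.8 TPM, the next 39.4 TPM), Ostc (42.6 TPM, the next 34.1 TPM) and Hspa1b (77.7 TPM, the next 19.0 TPM). Selenium 2 was highest for Sdf2l1 (66.7 TPM, the next 40.2 TPM) and Calr (771 TPM, the next 490 TPM). Control 4 was highest of the controls for Dnajc3 (24.7 TPM, the next 17.7 TPM) and Hsph1 (29.6 TPM, the next 14.8 TPM), and control 5 for Sdf2l1 (33.1 TPM, the next 22.4 TPM).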

How the results depend on the processing

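Under every alternative run, including 3 chosen after seeing the data (2 clock components as covariates, the 8 libraries with low Dbp, and the GC correction), the members' median log2 change stayed positive, from 0.58 to 0.83 with 1 library left out, and 0.36 with the clock covariates, where 1 member was at an unadjusted p under 0.05 (6 to 8 with 1 library left out, where 4.39 to 11.6% of all genes were higher at that level). The count of members past the adjusted threshold was 5 with array weights, 1 after the GC correction, 0 to 1 with 1 library left out and 0 in the rest. The log2 change of Calr turned negative without selenium 2 and with the clock covariates. Over all genes 33 passed, 2 higher and 31 lower. The total was 1 without a filter, 12 with quantile normalization (2 higher, 10 lower), 30 with median-of-ratios scaling (6 higher, 24 lower), 190 with TPM rescaled without mitochondrial-encoded genes (6 higher, 184 lower), 56 with robust empirical Bayes, 255 with array weights (114 higher, 141 lower), 4 with the clock covariates, 47 after the GC correction (13 higher, 34 lower), 47 in the low-Dbp libraries (34 higher, 13 lower) and 0 by an exact permutation test, whose smallest adjusted p was 0.133. With 1 library left out it ran from 7 (without control 2) to 171 (without control 6), and it was within 1.5 times of 33 without control 3 (22) and without selenium 6 (31) but not without any of the other 10. With a replicate block 3 genes and 0 members passed. Same-numbered libraries deviated together with r from -0.14 to 0.11, so the numbers were not taken as pairs. The planned description of protein C termini was not run. The cause of these differences was not tested. Depth cannot be had from TPM.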
